A study of Mus musculus with 43 samples.

Results

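The cathepsins are the proteases of the lysosome, and 10 of their genes were followed in mouse brain: Ctsa, Ctsb, Ctsc, Ctsd, Ctsf, Ctsh, Ctsl, Ctso, Ctss and Ctsz. They were found by symbol among the 55804 gene rows of each of the deposited expression tables, and all 10 passed the filter on low values in both tables. The first table holds 13 libraries of AppNLGF mice given CDDO-2P-Im, 11 libraries of AppNLGF mice given vehicle and 4 libraries of wild-type mice given vehicle, all aged 6 months. AppNLGF mice (AppNL-G-F/NL-G-F) carry a mutated App gene at its own locus on both copies. The second table holds 5 libraries each of APP/TAU mice given CDDO-2P-Im, APP/TAU mice given vehicle and wild-type mice given vehicle, all aged 11 months. APP/TAU mice (APPV717I::TAUP301L) carry mutant forms of the amyloid precursor protein and of tau, and the sources used here do not name the promoters that drive them. CDDO-2P-Im is a synthetic oleanane triterpenoid that induces the transcription factor NRF2. Dosing was oral, at 30 µmol/kg and 3 doses a week, and lasted 4 weeks in AppNLGF mice and 2 weeks in APP/TAU mice. The vehicle was a mixture of DMSO, Cremophor EL and PBS, which every wild-type mouse also received. The study asked whether an NRF2 inducer has therapeutic effects in these models. The labels do not say that each library came from a separate animal, so each p-value measures only the spread between libraries.

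Cathepsins are made as inactive precursors, carry a mannose 6-phosphate tag or other sorting signals to the endosome and lysosome, and become active there as the compartment turns acid. Cathepsin D is an aspartic protease, cathepsin A is a serine carboxypeptidase, and the other members followed here are papain-like cysteine proteases. In brain they are made by many cell types, with cathepsin S largely a product of microglia, and microglia around amyloid plaques are known for high cathepsin RNA.

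Levels are in TPM, an abundance corrected for the length of the transcript and scaled so that every library has the same total. The levels given are those of gene rows. The AppNLGF table lists some transcripts in rows of their own, so an order of genes by level holds for gene rows only. The APP/TAU table lists 0 such rows, yet its gene rows held only 84.9 to 90.8% of the total of a library. Whether the rest holds cathepsin RNA cannot be told. A TPM depends on everything else in its library. The row of 1 RNA without a symbol, ENSMUSG00000118866, took 15.5 to 40.0% of the total of a library, and it took 40.0%, 39.3% and 39.7% in libraries 1, 2 and 5 of the AppNLGF mice given CDDO-2P-Im. Each comparison is therefore given on TPM as deposited and again after median-ratio scaling, which divides each library by its median ratio to the geometric mean over genes. The scaling factors ran from 0.812 to 1.137 in AppNLGF mice given CDDO-2P-Im, from 0.913 to 1.099 in AppNLGF mice given vehicle and from 0.9985 to 1.071 in their wild types. In the second table they ran from 0.888 to 1.020 in APP/TAU mice given CDDO-2P-Im, from 0.976 to 1.277 in APP/TAU mice given vehicle and from 0.816 to 1.157 in wild types. The tissue is labelled brain, and the 6 neuronal markers summed to 1595 TPM or more in every library. Xist, the RNA that coats the inactive X chromosome of females, was above 10 TPM in 7 of 13 libraries of AppNLGF mice given CDDO-2P-Im, 5 of 11 given vehicle and 0 of 4 of their wild types.

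RefSeq promoter windows (GRCm38.p6, 250 bases before to 50 after a transcription start) were found for 8 members, the other two being Ctsb and Ctsh. The windows of the 3 genes that differed most in AppNLGF mice, Ctsd, Ctss and Ctsz, and the second start of Ctsa are shown because they hold words known to be bound by factors of the lysosome, of the drug or of myeloid cells. Capitals mark the words found on either strand. These are CACGTG, the E box, and TCACGTGA, the longer form around it that the lysosomal regulator TFEB binds, so that each copy of the longer word also holds the shorter. The others are TGACNNNGC, the core of the antioxidant response element bound by NRF2, and GAGGAAGT, a word bound by the myeloid factor PU.1. The Ctsd window is chr7:142387778-142388077 on the minus strand, the Ctss window chr3:95526536-95526835 on the plus strand, the Ctsz window chr2:174438990-174439289 on the minus strand and the Ctsa window chr2:164833523-164833822 on the plus strand.
Ctsd: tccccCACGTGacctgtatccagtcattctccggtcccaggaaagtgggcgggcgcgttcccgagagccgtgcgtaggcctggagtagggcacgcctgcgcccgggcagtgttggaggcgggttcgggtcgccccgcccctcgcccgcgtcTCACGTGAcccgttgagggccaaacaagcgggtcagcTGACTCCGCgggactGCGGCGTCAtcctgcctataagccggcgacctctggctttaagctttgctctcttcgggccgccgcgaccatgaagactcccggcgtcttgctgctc
Ctss: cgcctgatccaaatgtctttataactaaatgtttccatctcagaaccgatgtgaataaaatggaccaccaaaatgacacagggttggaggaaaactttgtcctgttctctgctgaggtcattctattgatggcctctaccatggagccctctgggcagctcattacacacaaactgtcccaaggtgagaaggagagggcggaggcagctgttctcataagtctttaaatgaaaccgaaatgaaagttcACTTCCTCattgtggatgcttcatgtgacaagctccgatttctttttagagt
Ctsz: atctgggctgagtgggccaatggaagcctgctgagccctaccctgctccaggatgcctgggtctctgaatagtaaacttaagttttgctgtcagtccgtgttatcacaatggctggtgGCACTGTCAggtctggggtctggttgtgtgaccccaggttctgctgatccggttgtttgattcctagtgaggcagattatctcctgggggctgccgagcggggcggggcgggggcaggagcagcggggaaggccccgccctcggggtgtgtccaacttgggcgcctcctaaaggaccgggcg
Ctsa: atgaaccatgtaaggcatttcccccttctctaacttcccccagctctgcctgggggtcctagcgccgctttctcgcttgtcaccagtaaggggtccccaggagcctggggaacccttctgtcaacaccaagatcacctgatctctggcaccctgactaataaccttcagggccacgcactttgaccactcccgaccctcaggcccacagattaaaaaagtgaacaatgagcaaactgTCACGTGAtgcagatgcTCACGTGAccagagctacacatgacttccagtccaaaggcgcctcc

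The Ctsd window held CACGTG at position -245 from the start, TCACGTGA at -99 and TGACNNNGC at -62 and -47. The Ctsz window held TGACNNNGC at -132, and the Ctss window held GAGGAAGT at -2 on the antisense strand. The second start of Ctsa had TCACGTGA at -13 and again at 5. Of the windows not printed, CACGTG also occurred in those of Ctsf and Ctsl, and GAGGAAGT in that of Ctsc. Over all 32851 promoter windows of the same length, 7.15% held CACGTG, 0.974% held TCACGTGA, 12.4% held TGACNNNGC and 3.20% held GAGGAAGT. A word in a window is a match of letters and does not show that a factor binds there.

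Summed over the 10 genes, cathepsin RNA averaged 479 ± 82.3 TPM in AppNLGF mice given CDDO-2P-Im (SD, n = 13), 505 ± 36.9 TPM in AppNLGF mice given vehicle (SD, n = 11) and 345 ± 12.1 TPM in their wild types (SD, n = 4). In the second table the sums averaged 380 ± 25.7 TPM in APP/TAU mice given CDDO-2P-Im, 427 ± 61.9 TPM in APP/TAU mice given vehicle and 393 ± 66.7 TPM in wild types (SD, n = 5 each). Ctsd and Ctsb came before every other member in each of the 6 groups, and Ctsc and Ctsh were at the bottom. The mean levels in wild types aged 6 months were ordered Ctsd (127 TPM), Ctsb (85.8), Ctss (35.5), Ctsa (25.1), Ctsl (22.0), Ctsz (18.1), Ctsf (17.5), Ctso (7.02), Ctsh (3.96) and Ctsc (2.79). In that order the neighbours Ctsz and Ctsf differed by less than the SD of Ctsf, 1.34 TPM. These sums and levels are of gene rows. In these wild types rows of single transcripts held a further 69.5 TPM of Ctsb, 20.2 of Ctsa, 16.2 of Ctsl and 12.7 of Ctsf. They held 1.17 TPM of Ctsd, and Ctss and Ctsz have none. With them added the order would differ, with Ctsb above Ctsd. Wild types aged 11 months had a similar order, with Ctsl (28.5 TPM), Ctsa (25.4 TPM) and Ctsf (23.1 TPM) ahead of Ctsz (19.0 TPM), and Ctsl, Ctsa and Ctsf each lay closer to a neighbour among them than their SDs of 3.62 to 5.00 TPM. The tables were normalized separately, so levels set across them may differ by table.

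**Figure D1:**
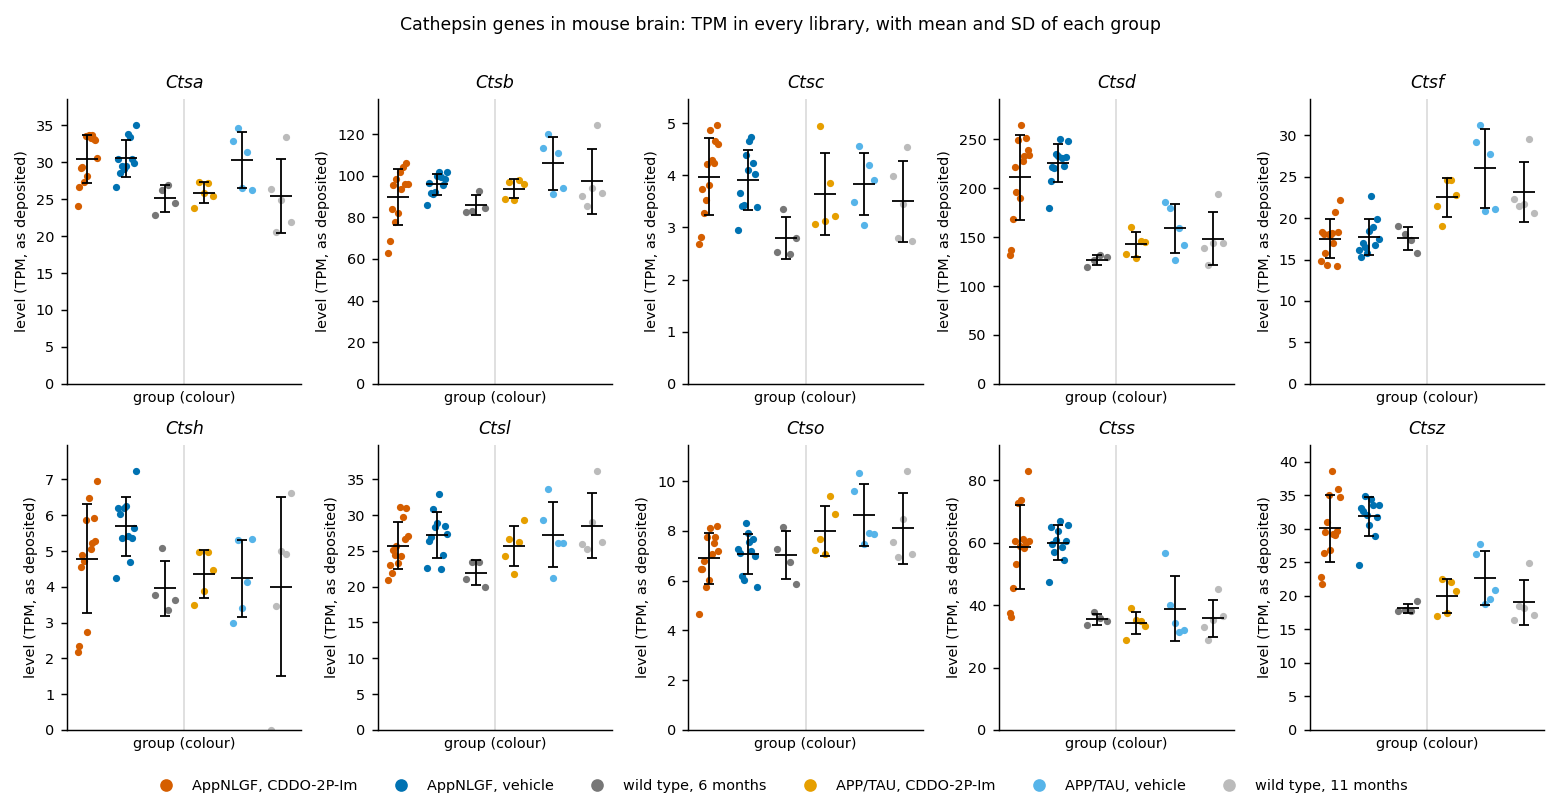
Each panel gives the TPM as deposited of 1 cathepsin gene in each of the 43 libraries (points), with the mean and SD of each group (bars), for the AppNLGF table left of the grey line and the APP/TAU table right of it. For Ctsd, Ctss and Ctsz all 11 libraries of AppNLGF mice given vehicle lie above all 4 wild-type libraries, while the 3 groups of the APP/TAU table overlap for each of the 10 genes.

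In AppNLGF mice given vehicle, Ctsd, Ctss and Ctsz were higher than in wild types, at 1.77, 1.67 and 1.71 times the wild-type level on the log2(TPM + 1) scale. None of the 10 had a fold below 0. These 3 of 10 passed an adjusted p below 0.05 on TPM as deposited (limma, Benjamini-Hochberg over 16776 genes), where 0.28% of all genes tested did so. After median-ratio scaling 5 of 10 passed, Ctsa and Ctsc being the additional genes, against 0.691% of all genes. The median log2 fold change of the 10 was 0.33 as deposited and 0.36 after scaling, beside a median over all genes of -0.03 and -0.00088. These bulk values cannot tell more cells of a type from more RNA per cell.

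Ctsd (ENSMUSG00000007891, chr7:142375911-142388038, minus strand) encodes the main aspartic protease of the lysosome. Its level was 180.0 to 250.4 TPM with a median of 230.7 TPM in AppNLGF mice given vehicle, against 119.5, 126.7, 131.7 and 129.5 TPM in the 4 wild-type libraries. The groups did not overlap, and library 1 was the lowest of the model. The fold change of Ctsd, in log2, was 0.82 ± 0.14 (SE, 95% interval 0.54 to 1.1, limma adjusted p = 0.00173) and 0.85 ± 0.08 after scaling (adjusted p = 4.08e-07).

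Ctss (ENSMUSG00000038642, chr3:95526786-95556403, plus strand) encodes the endopeptidase that trims the invariant chain of MHC class II and stays active at neutral pH. It was at 47.5 to 66.8 TPM, median 60.6 TPM, in AppNLGF mice given vehicle, against 33.5, 37.6, 35.8 and 34.9 TPM in wild types. All 11 model libraries were above all 4 wild types. On the log2 scale the change was 0.74 ± 0.14 (SE, limma adjusted p = 0.0102) and 0.77 ± 0.10 after scaling (adjusted p = 4.93e-05). As deposited, the call was lost when wild-type library 1 or 4 was left out, with an adjusted p of up to 0.0805.

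Ctsz (ENSMUSG00000016256, chr2:174427493-174439039, minus strand) encodes a carboxypeptidase, also called cathepsin X, that takes single residues from the end of a chain. It was at 24.5 to 34.9 TPM, median 32.7 TPM, in AppNLGF mice given vehicle and at 17.8, 17.9, 17.7 and 19.2 TPM in wild types. The groups were separate here too, and library 1 was again the lowest of the model. This gave a log2 fold of 0.77 ± 0.11 (SE, limma adjusted p = 0.000157) and 0.80 ± 0.09 after scaling (adjusted p = 2.59e-06).

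The share of all genes with every vehicle library above every wild type was 0.399% as deposited and 0.680% after scaling. Among the cathepsins this held for the 3 genes above as deposited, and after scaling for Ctsa and Ctsc as well.

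Ctsa (ENSMUSG00000017760, chr2:164832873-164841032, plus strand) encodes the protective protein that holds neuraminidase 1 and beta-galactosidase in a stable complex. Its level was 26.6 to 35.1 TPM, median 29.9 TPM, in AppNLGF mice given vehicle and 22.9, 26.3, 26.9 and 24.4 TPM in wild types, with 10 of 11 model libraries above all wild types. The fold change, in log2, was 0.27 ± 0.08 (SE, limma adjusted p = 0.286) as deposited. After scaling it was 0.30 ± 0.04 (adjusted p = 5.8e-05), so the call depends on the scaling. The fold itself hardly moved, and the SE was smaller after scaling.

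Ctsc (ENSMUSG00000030560, chr7:88278085-88310888, plus strand) encodes dipeptidyl peptidase I, which activates granule proteases of immune cells. It was the least abundant member, at 2.96 to 4.73 TPM, median 4.03 TPM, in AppNLGF mice given vehicle and at 2.53, 3.35, 2.48 and 2.80 TPM in wild types. Wild-type library 2 lay inside the range of the model. For Ctsc the log2 fold change was 0.37 ± 0.12 (SE, limma adjusted p = 0.414) and 0.39 ± 0.08 after scaling (adjusted p = 0.00902). The scaled call was lost without wild-type library 1 or 3, with an adjusted p of up to 0.0960.

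The other cysteine proteases did not pass on either scale. Ctsb (ENSMUSG00000021939, chr14:63122462-63145923, plus strand), both an endopeptidase and a dipeptidyl carboxypeptidase, was at 85.7 to 102 TPM, median 96.4 TPM, in AppNLGF mice given vehicle and at 82.7, 83.0, 92.8 and 84.5 TPM in wild types. Its log2 fold change was 0.16 ± 0.10 (SE, limma adjusted p = 1) and 0.19 ± 0.05 after scaling (adjusted p = 0.0599), and 7 of 11 model libraries were above all wild types as deposited. The scaled value passed when library 9 of the vehicle group or library 1 or 2 given CDDO-2P-Im was left out, with an adjusted p as low as 0.0148.

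Ctsl (ENSMUSG00000021477, chr13:64359337-64370890, minus strand), a broad endopeptidase, was at 22.5 to 33.0 TPM, median 27.3 TPM, in AppNLGF mice given vehicle and at 21.0, 23.4, 23.5 and 20.0 TPM in wild types. On the log2 scale the change was 0.29 ± 0.10 (SE, limma adjusted p = 0.485) and 0.32 ± 0.08 after scaling (adjusted p = 0.0741). Here 9 of 11 model libraries were above all wild types. The scaled value passed without vehicle library 8 or 9, with an adjusted p as low as 0.0133.

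Ctsh (ENSMUSG00000032359, chr9:90054152-90076089, plus strand), an aminopeptidase that also makes cuts inside a chain, was at 4.24 to 7.24 TPM, median 5.63 TPM, in AppNLGF mice given vehicle and at 3.77, 5.07, 3.35 and 3.64 TPM in wild types. This gave a log2 fold of 0.43 ± 0.18 (SE, limma adjusted p = 1) and 0.46 ± 0.15 after scaling (adjusted p = 0.321), among the larger folds but with a wide spread. Wild-type library 2 was inside the range of the model.

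Ctsf (ENSMUSG00000083282, chr19:4855130-4860918, plus strand) and Ctso (ENSMUSG00000028015, chr3:81932601-81956725, plus strand) had nearly the same level in model and wild type. Ctsf, which like Ctss can trim the invariant chain, was at 15.3 to 22.7 TPM, median 17.0 TPM, in AppNLGF mice given vehicle and at 19.0, 18.0, 17.4 and 15.8 TPM in wild types, a log2 fold change of 0.01 (95% interval -0.19 to 0.20). Ctso was at 5.74 to 8.32 TPM, median 7.21 TPM, in the model and at 7.29, 8.18, 6.75 and 5.86 TPM in wild types, a log2 fold change of 0.01 (95% interval -0.20 to 0.22). For both genes the range of the model contained every wild-type library.

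**Figure D2:**
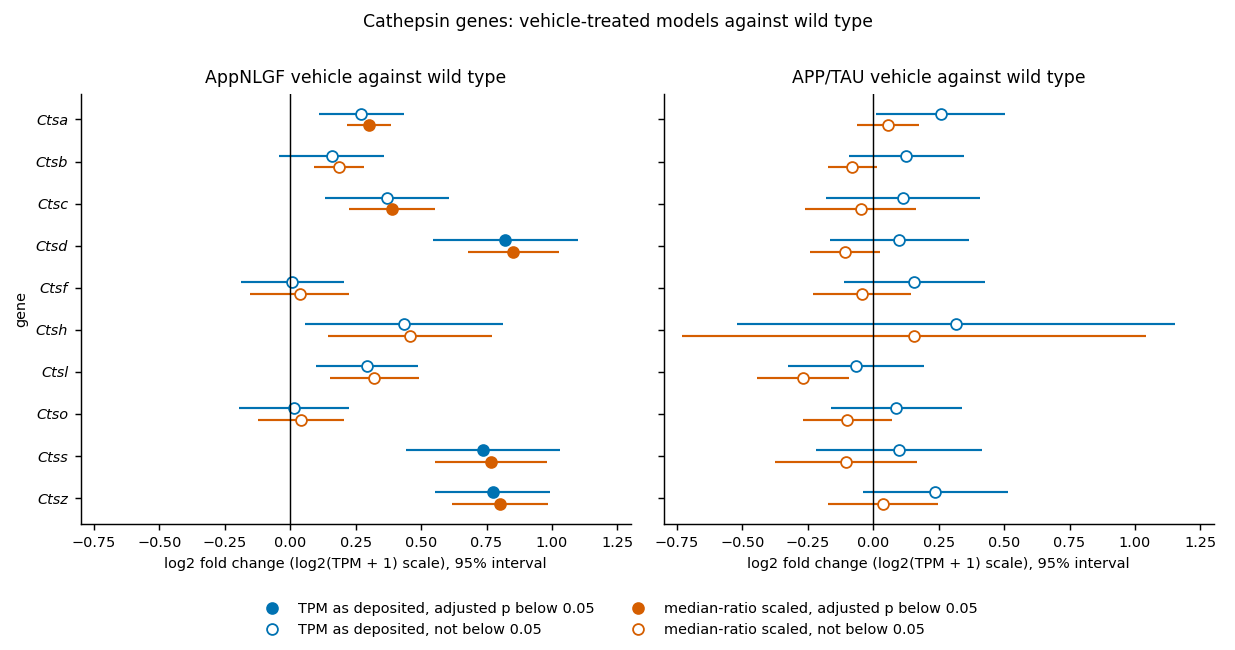
Points give the log2 fold change of each cathepsin gene in vehicle-treated model mice over wild type on the log2(TPM + 1) scale, with 95% intervals, as deposited (blue) and median-ratio scaled (orange), and filled points passed an adjusted p below 0.05. In AppNLGF mice all 10 values are above 0 and Ctsd, Ctss and Ctsz are filled on both scales, while in APP/TAU mice no point is filled.

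All 4 wild types of the AppNLGF table had Xist at or below 10 TPM, so the comparison was repeated in the libraries under that limit, 6 given vehicle and 4 wild types. The log2 fold changes there were 0.79 for Ctsd, 0.71 for Ctss and 0.74 for Ctsz, close to those over all libraries. In this smaller set Ctsz passed (limma adjusted p = 0.0317), and Ctsd (adjusted p = 0.155) and Ctss (adjusted p = 0.214) did not as deposited, beside 0.107% of all genes called. After scaling, Ctsa, Ctsd, Ctss and Ctsz passed there, with adjusted p between 0.0015 and 0.00848, beside 0.374% of all genes.

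Scaling factors of both AppNLGF model groups were mostly lower in libraries 1 to 5 than in later ones. They were 0.812 to 0.984 in libraries 1 to 5 and 0.888 to 1.137 in libraries 6 to 13 given CDDO-2P-Im, and 0.913 to 0.979 in libraries 1 to 5 and 1.043 to 1.099 in libraries 6 to 11 given vehicle. The wild types hold only numbers 1 to 4, with factors of 0.9985 to 1.071. In libraries numbered 1 to 5, vehicle against wild type gave log2 folds of 0.74 for Ctsd (limma adjusted p = 0.0342), 0.69 for Ctss (adjusted p = 0.0596) and 0.75 for Ctsz (adjusted p = 0.0196) as deposited, where 0.225% of all genes were called. After scaling Ctsa, Ctsd, Ctsl, Ctss and Ctsz passed there, beside 0.34% of all genes.

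Genes of endogenous protease inhibitors, listed as inhibitors of cathepsins, were measured beside them. Whether each acts on the members followed here was not tested. Of 19 listed inhibitors 8 were tested, and 2 rose in AppNLGF mice given vehicle as deposited. Cst7, which encodes cystatin F, an inhibitor of myeloid cells, averaged 15.0 ± 3.6 TPM in AppNLGF mice given vehicle and 0.194 ± 0.16 TPM in wild types (SD, n = 11 and 4), a log2 fold change of 3.72 ± 0.30 (SE, limma adjusted p = 6.22e-09). Serpina3n, a secreted serine protease inhibitor of reactive astrocytes, averaged 9.87 TPM in the model and 4.81 TPM in wild types, 0.88 ± 0.19 (SE, limma adjusted p = 0.0248). Both were also higher after scaling. Cst3, which encodes cystatin C, the most abundant inhibitor at 870 TPM in the model and 795 TPM in wild types, had 0.13 as deposited and passed after scaling at 0.16 (adjusted p = 0.0237). The log2 folds of the other tested inhibitors were 0.46 for A2m, -0.35 for Serpinb1a, -0.10 for Serpinb6a, -0.03 for Serpinb9 and -0.02 for Cstb, and none passed.

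The genes that activate, sort and carry cathepsins had a median log2 fold change of 0.02 as deposited, and 1 of 18 rose. This was Grn, which encodes progranulin, a lysosomal protein that travels with prosaposin, at 28.5 ± 2.5 TPM in AppNLGF mice given vehicle and 19.7 ± 1.3 TPM in wild types (log2 fold change 0.51 ± 0.10, limma adjusted p = 0.00932). Lgmn, the legumain that cuts single-chain cathepsins to the mature form, had 0.09, and the receptor genes M6pr, Igf2r and Sort1 had 0.02, 0.04 and 0.01. The partners of cathepsin A did not pass, with Neu1 at -0.03, Glb1 at 0.06 and Galns at -0.12.

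Among 40 tested lysosomal enzymes and membrane proteins other than cathepsins, 2 rose as deposited, Cd68 (1.14 ± 0.21, limma adjusted p = 0.00624), a membrane protein of phagocytes, and Gusb (0.59 ± 0.12, adjusted p = 0.0196), the beta-glucuronidase. After scaling 7 of 40 rose, with Man2b1, Npc2 and Laptm5 among those added, and the median of the list was 0.02 as deposited and 0.05 scaled. None of 15 tested vacuolar ATPase subunits, the proton pump of the lysosome, passed, and their median was -0.03. Of 7 tested transcription factors none passed as deposited, with Tfeb at -0.09, Tfe3 at -0.12, Mitf at -0.20 and Spi1 (PU.1) at 0.18. Irf8, a myeloid factor, had 0.63 ± 0.15 (limma adjusted p = 0.0552) and passed after scaling (adjusted p = 0.00418).

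Of 18 tested genes of plaque-associated microglia other than cathepsins, 8 rose as deposited and 11 after scaling, with a median log2 fold change of 0.71 on both scales. The list was chosen with these data known, so its direction is no independent evidence, and Cst7 and Cd68 stand in an earlier list too. Trem2, a lipid receptor of microglia, rose by 1.41 ± 0.17 (limma adjusted p = 3.08e-05), and Clec7a, a pattern receptor, by 2.11 ± 0.26 (adjusted p = 3.08e-05). All 10 general microglial markers had folds above 0, and 1 passed as deposited, Fcrls (0.79 ± 0.16, adjusted p = 0.0107). After scaling 4 of the 10 passed, among them Csf1r (0.45 ± 0.08, limma adjusted p = 0.000979) and Itgam (0.37 ± 0.08, adjusted p = 0.0221). The summed level of the 10 markers was 136 to 211 TPM in AppNLGF mice given vehicle and 126 to 138 TPM in wild types. Of 7 astrocyte markers Gfap rose (1.58 ± 0.20, adjusted p = 4.97e-05), and the summed level was 665 to 830.3 TPM in the model and 601 to 647 TPM in wild types.

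None of the 6 border macrophage markers reached a mean of 1 TPM in this table, and their sum was 2.17 to 4.77 TPM in AppNLGF mice given vehicle and 1.89 to 3.86 TPM in wild types. The sum of 6 neutrophil and lymphocyte markers was 0.0845 to 1.53 TPM in the model and 0.687 to 1.54 TPM in wild types. Choroid plexus markers summed to 6.31 to 684 TPM in the model and 484 to 727 TPM in wild types, and red cell markers to 16.0 to 123 TPM in the model and 78.8 to 232 TPM in wild types, without a call in either list. The part of these tissues in the cathepsin differences was not tested.

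In AppNLGF mice given CDDO-2P-Im no cathepsin gene was detectably different from AppNLGF mice given vehicle. None of the 10 passed as deposited or after scaling (limma, Benjamini-Hochberg), where 0.0536% of all genes passed as deposited and 0.286% after scaling. At an unadjusted p below 0.05 there were 0 as deposited and 1, Ctsh, after scaling. Of all 16776 genes tested, 1036 were below that limit as deposited and 2094 after scaling. The log2 fold changes ran from -0.26 for Ctsh to 0.01 for Ctsc as deposited, with a median of -0.07 beside -0.04 over all genes. After scaling they ran from -0.23 for Ctsh to 0.05 for Ctsc, with a median of -0.03 beside -0.0020 over all genes.

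Ctsd was at 132 to 265 TPM with a median of 228 TPM in AppNLGF mice given CDDO-2P-Im, against 180.0 to 250.4 TPM with a median of 230.7 TPM in those given vehicle. The spread was wider under the drug, with libraries 1 and 2 lowest at 132 and 137 TPM. The fold change, in log2, was -0.12 ± 0.10 (SE, 95% interval -0.32 to 0.07) and -0.08 after scaling (95% interval -0.20 to 0.04). Without libraries 1 and 2 it was -0.01 as deposited. Within libraries numbered 1 to 5 the fold of Ctsd was -0.34 as deposited (unadjusted p = 0.0164, limma adjusted p = 0.144) and -0.22 after scaling (adjusted p = 0.323), and within libraries numbered 6 and above it was -0.004 as deposited and 0.02 after scaling.

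Ctss was at 36.3 to 83.1 TPM, median 60.1 TPM, in AppNLGF mice given CDDO-2P-Im and at 47.5 to 66.8 TPM, median 60.6 TPM, in those given vehicle. Treated libraries lay on both sides of the vehicle range, 3 above and 3 below. Its log2 fold change was -0.06 (95% interval -0.27 to 0.14), and after scaling -0.02 (95% interval -0.17 to 0.13).

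Ctsz was at 21.7 to 38.6 TPM, median 29.5 TPM, under CDDO-2P-Im and at 24.5 to 34.9 TPM, median 32.7 TPM, under vehicle. As deposited 3 treated libraries were again above all vehicle libraries and 2 below, but after scaling 0 were above and 3 below. On the log2 scale the change was -0.09 (95% interval -0.25 to 0.06), and after scaling -0.05 (95% interval -0.18 to 0.08).

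Ctsh was at 2.18 to 6.95 TPM, median 5.06 TPM, in AppNLGF mice given CDDO-2P-Im and at 4.24 to 7.24 TPM, median 5.63 TPM, in those given vehicle. Libraries 1, 2 and 7 under the drug were below every vehicle library, and none was above. This gave a log2 fold of -0.26 ± 0.13 (SE, limma adjusted p = 0.778), and -0.23 ± 0.11 after scaling (unadjusted p = 0.0448, adjusted p = 0.385). Without libraries 1 and 2 it was -0.12 as deposited. The direction holds for the gene row alone, since with rows of single transcripts added the fold was 0.04 ± 0.10 as deposited (adjusted p = 0.974) and 0.05 ± 0.08 after scaling (adjusted p = 0.834).

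The remaining members overlapped widely. Ctsb was at 62.7 to 106 TPM, median 95.7 TPM, under CDDO-2P-Im, Ctsa at 24.0 to 33.8 TPM, median 30.6 TPM, and Ctsl at 21.0 to 31.1 TPM, median 25.2 TPM. Ctsf was at 14.2 to 22.1 TPM, median 18.0 TPM, Ctso at 4.68 to 8.21 TPM, median 7.09 TPM, and Ctsc at 2.69 to 4.97 TPM, median 4.23 TPM. The log2 fold changes of these 6 against vehicle lay between -0.11 (Ctsb) and 0.01 (Ctsc) as deposited. Library 1 was the lowest treated library for 7 of the 10 genes on TPM as deposited.

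**Figure D3:**
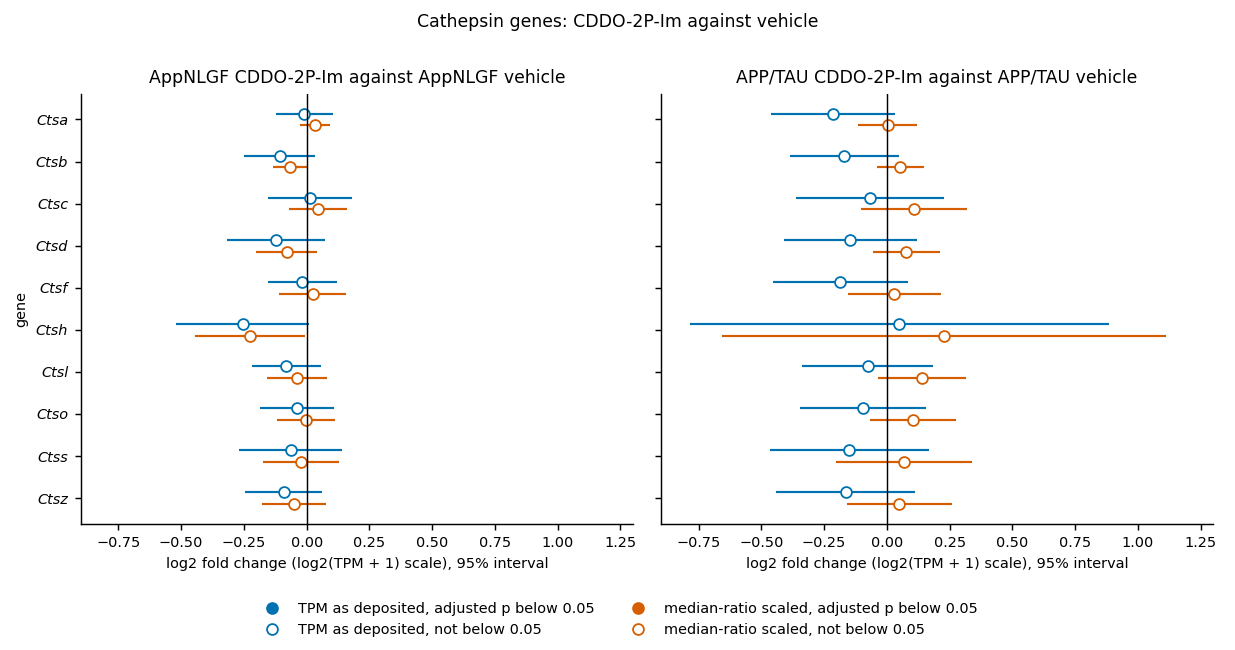
Points give the log2 fold change of each cathepsin gene under CDDO-2P-Im over vehicle within each model, on the log2(TPM + 1) scale with 95% intervals, as deposited (blue) and median-ratio scaled (orange). No point is filled, since none passed an adjusted p below 0.05, and in APP/TAU mice 1 of 10 values is above 0 as deposited but 10 of 10 are after scaling.

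Genes that read out NRF2 were tested in the same libraries. Aox1, an oxidase of aldehydes, rose under CDDO-2P-Im in AppNLGF mice by 0.49 ± 0.09 as deposited (SE, limma adjusted p = 0.0232), 1 of 7 tested readouts. After scaling 4 of 7 rose, namely Gstm1 (0.50), Ftl1 (0.27), Aox1 (0.52) and Nqo1 (0.47). Of the lists of inhibitors, sorting genes, cathepsin A partners, lysosomal genes, vacuolar ATPase subunits, transcription factors, plaque-associated genes, microglia and astrocytes, none held a gene that passed in this comparison on either scale. Cst7 averaged 13.6 ± 5.7 TPM under the drug and 15.0 ± 3.6 TPM under vehicle (SD, n = 13 and 11). The summed microglial markers were 102 to 219 TPM under the drug and 136 to 211 TPM under vehicle.

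Set against wild type, AppNLGF mice given CDDO-2P-Im had higher Ctsd, Ctss and Ctsz on TPM as deposited. The log2 fold changes were 0.70 ± 0.13 for Ctsd (SE, limma adjusted p = 0.0107), 0.67 ± 0.14 for Ctss (adjusted p = 0.0253) and 0.68 ± 0.11 for Ctsz (adjusted p = 0.000702), beside 0.262% of all genes called. All 13 treated libraries were above all wild types for Ctsz, 12 for Ctsd and 11 for Ctss. After scaling Ctsa (0.33) and Ctsc (0.43, limma adjusted p = 0.00211) passed too, for 5 of 10 beside 0.715% of all genes. In those 5 all 13 treated libraries were above all wild types. The share of all genes with every treated library above every wild type was 0.155% as deposited and 0.614% after scaling. Both comparisons share the wild-type libraries, so they are not independent. The wild types are few, and as deposited Ctss was lost on leaving out any 1 of the 4 (adjusted p up to 0.188) and Ctsd on leaving out number 1, 2 or 4 (adjusted p up to 0.0998). Without treated libraries 1 and 2 together, 5 of 10 passed as deposited, beside 0.446% of all genes, with Ctsd at 0.81, Ctss at 0.79 and Ctsz at 0.75. In the libraries with Xist at or below 10 TPM, 6 treated and 4 wild types, 0 of 10 passed as deposited, beside 0.0178% of all genes, with folds of 0.65 for Ctsd, 0.56 for Ctss and 0.60 for Ctsz. After scaling Ctsa, Ctsd, Ctss and Ctsz passed there with adjusted p of up to 0.0168, beside 0.267% of all genes. Within libraries numbered 1 to 5, Ctsd (0.40, adjusted p = 0.0344) and Ctsz (0.50, adjusted p = 0.00895) passed as deposited, where 32.2% of all genes were called, 5232 of them lower. After scaling Ctsa, Ctsd, Ctss and Ctsz passed there, beside 0.146% of all genes.

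In APP/TAU mice given vehicle no cathepsin gene passed against wild type on either scale (limma, Benjamini-Hochberg), where 0.0227% of all genes passed as deposited and 0.0284% after scaling. As deposited 9 of 10 folds were above 0, with a median of 0.12 beside 0.18 over all 17592 genes tested. After scaling 3 of 10 were above 0, with a median of -0.06 beside -0.0024 over all genes. The direction of most members therefore turns with the scaling in this table, and none is given as higher or lower. At an unadjusted p below 0.05 there was 1 member as deposited, Ctsa, and 1 after scaling, Ctsl. Of all 17592 genes, 4186 were below that limit as deposited and 2502 after scaling, so neither member stands out by it.

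Ctsd was at 186.4, 180.2, 126.8, 159.8 and 141.6 TPM in APP/TAU mice given vehicle and at 138.5, 121.4, 144.3, 194.4 and 144.1 TPM in wild types. The groups overlap, and the highest library of all was wild-type library 4. The fold change, in log2, was 0.10 (95% interval -0.17 to 0.37) as deposited and -0.11 (95% interval -0.24 to 0.03) after scaling.

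Ctss was at 56.8, 40.0, 34.3, 31.3 and 32.1 TPM in APP/TAU mice given vehicle and at 32.9, 28.9, 35.2, 45.2 and 36.7 TPM in wild types. Model library 1 stood well above the rest of its group. Its log2 fold change was 0.10 (95% interval -0.22 to 0.42) and -0.11 after scaling (95% interval -0.38 to 0.17).

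Ctsz was at 26.2, 27.6, 18.8, 19.5 and 20.9 TPM in APP/TAU mice given vehicle and at 16.4, 18.5, 18.1, 24.9 and 17.1 TPM in wild types. Model libraries 1 and 2 were above every wild type, and the other three were within the wild-type range. On the log2 scale the change was 0.24 (95% interval -0.04 to 0.51) and 0.04 after scaling (95% interval -0.17 to 0.25).

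Ctsl was at 29.3, 33.6, 21.2, 26.1 and 26.1 TPM in APP/TAU mice given vehicle and at 26.0, 25.3, 29.0, 36.2 and 26.2 TPM in wild types. After scaling it was at 25.8, 26.4, 21.7, 21.5 and 26.7 TPM in the model and at 26.7, 30.9, 31.3, 31.3 and 27.3 TPM in wild types, so that 4 of 5 model libraries lay below every wild type. The scaled log2 fold change was -0.27 ± 0.08 (SE, unadjusted p = 0.00535, limma adjusted p = 0.204), against -0.07 as deposited. It was negative on leaving out any 1 of the 15 libraries, from -0.30 to -0.23 after scaling, and never passed.

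Ctsa was at 32.9, 34.7, 26.5, 31.4 and 26.2 TPM in APP/TAU mice given vehicle and at 26.4, 20.5, 24.9, 33.4 and 21.9 TPM in wild types. This gave a log2 fold of 0.26 ± 0.12 (SE, unadjusted p = 0.0416, limma adjusted p = 0.198) and 0.06 after scaling. Ctsh was listed at 0 in wild-type library 1 and at 3.47, 5.00, 4.92 and 6.63 TPM in the other wild types, against 2.97, 5.31, 3.42, 4.15 and 5.33 TPM in the model. Its interval was the widest of the family, from -0.52 to 1.15. Without wild-type library 1 the log2 fold of Ctsh turned from 0.31 to -0.20 as deposited, and from 0.15 to -0.37 after scaling.

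Ctsb was at 91.2 to 119.8 TPM in APP/TAU mice given vehicle and at 85.6 to 124.5 TPM in wild types, and Ctsf at 20.8 to 31.3 TPM in the model and 20.6 to 29.5 TPM in wild types. Ctso was at 7.47 to 10.3 TPM in the model and at 6.96 to 10.4 TPM in wild types, and Ctsc at 3.04 to 4.57 TPM in the model and 2.73 to 4.54 TPM in wild types. In all 4 genes the groups overlapped. As deposited their log2 fold changes were 0.13 for Ctsb, 0.16 for Ctsf, 0.09 for Ctso and 0.11 for Ctsc, and after scaling -0.08 for Ctsb, -0.04 for Ctsf, -0.10 for Ctso and -0.05 for Ctsc.

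None of the lists of inhibitors, sorting genes, cathepsin A partners, lysosomal genes, vacuolar ATPase subunits, transcription factors, plaque-associated genes, microglia or astrocytes held a gene that passed in APP/TAU mice given vehicle. Cst7 averaged 0.60 TPM there and 0.21 TPM in wild types, under the limit for testing. The summed microglial markers were 114 to 148 TPM in APP/TAU mice given vehicle and 96.6 to 151 TPM in wild types.

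CDDO-2P-Im against vehicle in APP/TAU mice also gave no called cathepsin gene. As deposited, 0% of all genes were called at an adjusted p below 0.05, while 4719 of 17592 had an unadjusted p below 0.05, and the median over all genes was -0.19. After scaling 0.0114% of all genes were called. The log2 folds of the members ran from -0.21 (Ctsa) to 0.05 (Ctsh) as deposited, with a median of -0.15, and from 0.00 (Ctsa) to 0.23 (Ctsh) after scaling, with a median of 0.07. Here too the sign of most members turned with the scaling.

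Under CDDO-2P-Im the 5 APP/TAU libraries had 132.8, 160.3, 128.9, 146.1 and 144.7 TPM of Ctsd, all inside the vehicle range. They had 28.9, 39.0, 35.3, 34.9 and 33.4 TPM of Ctss, without a library as high as vehicle library 1. Ctsz was at 17.0, 22.6, 17.4, 22.0 and 20.7 TPM and Ctsl at 24.3, 26.7, 21.8, 26.3 and 29.3 TPM. For these 4 genes the drug and vehicle groups overlapped, and the largest log2 difference after scaling was 0.14 for Ctsl (95% interval -0.04 to 0.31).

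Ctsa was at 23.8 to 27.4 TPM and Ctsb at 88.4 to 98.0 TPM in APP/TAU mice given CDDO-2P-Im, and Ctsf was at 19.0 to 24.6 TPM. Ctso was at 7.06 to 9.42 TPM, Ctsh at 3.49 to 4.98 TPM and Ctsc at 3.06 to 4.94 TPM. As deposited, 3 of 5 libraries under the drug were below all vehicle libraries for Ctsa and 2 of 5 for Ctsb, Ctso and Ctsz. On that scale 3.62% of all genes had all 5 below. After scaling 1 of 5 was below for Ctsa and 0 for Ctsb, Ctso and Ctsz. Above all vehicle libraries were then 2 of 5 for Ctso, 1 each for Ctsa and Ctsb and 0 for Ctsz. Of the NRF2 readouts 2 of 7 rose after scaling, Ftl1 (0.41, limma adjusted p = 0.00117) and Gstm1 (0.64, adjusted p = 0.00117), and 0 as deposited. Against wild type the treated APP/TAU mice had no called member either, beside 0.0227% of all genes as deposited and 0.0284% after scaling, and the median log2 fold of the members was -0.02 as deposited and -0.004 after scaling.

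The models were set against each other by the difference of their folds over wild type, AppNLGF minus APP/TAU, in a fit of all 6 groups over 16418 genes. Age, duration of dosing and table differ with the model and cannot be told apart from it. The brain region taken may differ with it too, which was not tested. As deposited no cathepsin gene passed, beside 0.177% of all genes. The differences were 0.72 ± 0.19 for Ctsd (SE, limma adjusted p = 0.097), 0.64 ± 0.21 for Ctss (adjusted p = 0.141) and 0.54 ± 0.17 for Ctsz (adjusted p = 0.130), and the median over all genes was -0.21. After scaling, where that median was 0.0021, 5 of 10 passed beside 0.53% of all genes. These were Ctsd (0.96 ± 0.12, adjusted p = 1.74e-06), Ctss (0.87 ± 0.16, adjusted p = 0.00386), Ctsz (0.76 ± 0.14, adjusted p = 0.00157), Ctsl (0.59 ± 0.12, adjusted p = 0.00982) and Ctsb (0.27 ± 0.07, adjusted p = 0.0460).

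For Ctsl and Ctsb the difference joined a positive fold in AppNLGF mice and a negative one in APP/TAU mice, none of which passed alone. These folds are of gene rows. In AppNLGF mice given vehicle rows of single transcripts held 14.8 ± 2.8 TPM of Ctsl and 83.5 ± 6.8 TPM of Ctsb (SD, n = 11). Their wild types had 16.2 ± 6.7 and 69.5 ± 5.5 TPM there (SD, n = 4). The difference between the models was not tested with those rows added. The difference between the models in the effect of CDDO-2P-Im passed for no member, beside 0.134% of all genes as deposited and 0.0731% after scaling.

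The make-up of cathepsin RNA in gene rows moved with Ctsd. Ctsd held 43.8% of the summed TPM in AppNLGF mice given CDDO-2P-Im, 44.6% in those given vehicle and 36.8% in their wild types. Ctsb held 18.8% under CDDO-2P-Im, 19.0% under vehicle and 24.9% in wild types. Ctss held 12.1% under CDDO-2P-Im, 11.9% under vehicle and 10.3% in wild types. In the APP/TAU table Ctsd held 37.4% under CDDO-2P-Im, 37.2% under vehicle and 37.7% in wild types, and Ctsb held 24.6% under CDDO-2P-Im, 24.9% under vehicle and 24.8% in wild types. A share is a ratio within a library and does not depend on the scaling. It shows unequal change among members, not which of them changed. In the AppNLGF table the gene rows leave out rows of single transcripts. These held 44.7 to 48.9% of the total of Ctsb, by group, but 0.902 to 1.66% of that of Ctsd. The shares would differ with those rows added. Shares in the APP/TAU table are of gene rows too, and what these leave out there is not known.

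**Figure D4:**
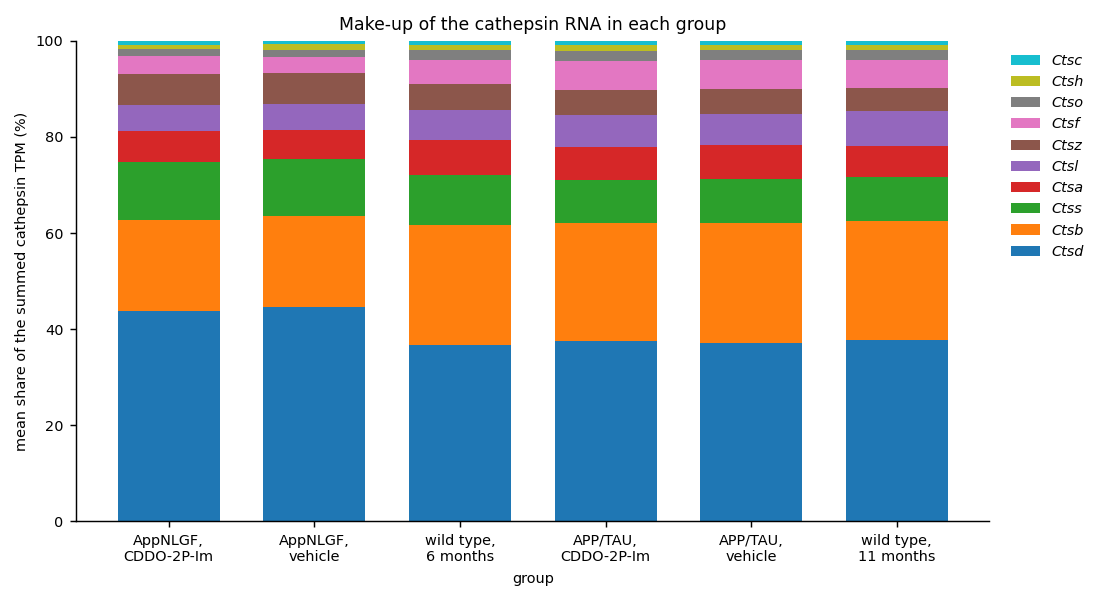
Stacked bars give the mean share of each cathepsin gene in the TPM summed over the 10 gene rows, in percent, for all 6 groups. Ctsd takes 43.8% and 44.6% in the AppNLGF groups against 36.8% in their wild types, and between 37.2% and 37.7% in the 3 groups of the APP/TAU table.

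The AppNLGF table also lists rows of single transcripts, kept out of the values above, and for some cathepsins these hold much RNA. Rows of single transcripts of Ctsb held 48.9% of the gene's total in AppNLGF mice given CDDO-2P-Im, 46.5% in those given vehicle and 44.7% in wild types. Nearly all of it was Ctsb-202, annotated as a retained intron, at 84.0 TPM under CDDO-2P-Im, 81.8 TPM under vehicle and 68.1 TPM in wild types. For Ctsf, Ctsa and Ctsl the rows held between 34.8% and 45.0% of the gene total in each of the 3 groups. For Ctsd they held 0.902 to 1.66%, and Ctss and Ctsz had none, so the level of the 3 leading genes hardly depends on these rows.

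For Ctsh the share was 33.6% under CDDO-2P-Im, 17.0% under vehicle and 16.5% in wild types. These rows of Ctsh averaged 2.40 TPM under CDDO-2P-Im, 1.24 TPM under vehicle and 0.793 TPM in wild types. For Ctso the share was 20.9% under CDDO-2P-Im, 22.8% under vehicle and 16.2% in wild types. For Ctsc it was 10.0% under CDDO-2P-Im, 14.1% under vehicle and 6.97% in wild types. With these rows added to their genes, Ctsd, Ctss and Ctsz passed as before in AppNLGF mice given vehicle against wild type, beside 0.284% of all genes. After scaling, where 0.546% of all genes were called, Ctsc (0.49, limma adjusted p = 0.0421) and Ctsh (0.48, adjusted p = 0.0324) passed as well, and Ctsa (adjusted p = 0.106) did not.

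**Figure D5:**
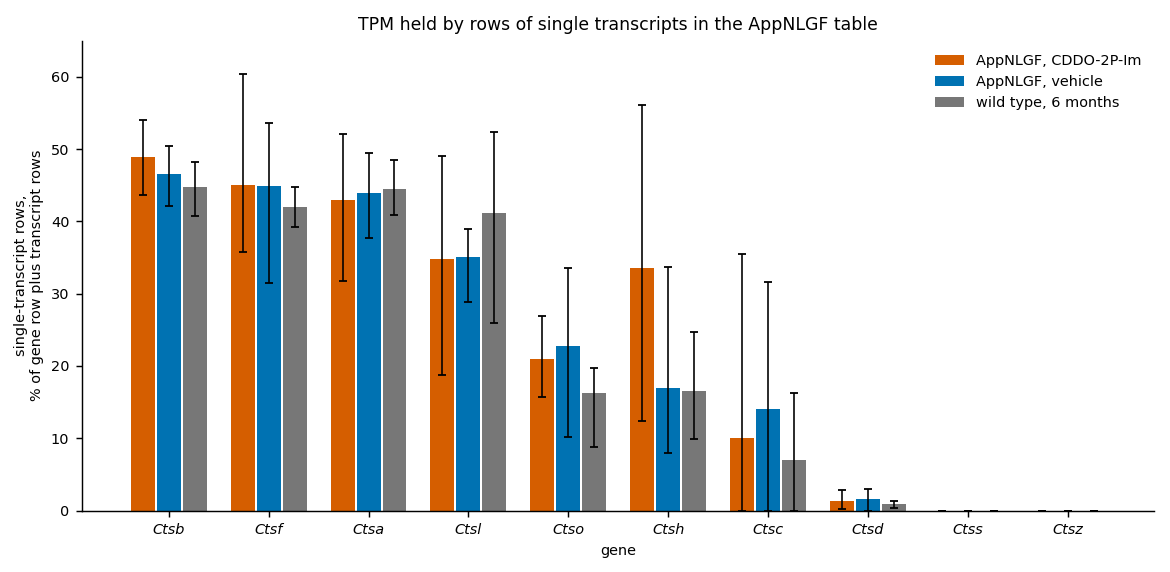
Bars give the mean percent of a gene's TPM, gene row plus transcript rows, that is held by rows of single transcripts in the AppNLGF table, and the whiskers run from the lowest to the highest library. Ctsb, Ctsf, Ctsa and Ctsl stand highest, the share of Ctsh is 33.6% under CDDO-2P-Im against 17.0% under vehicle, and Ctss and Ctsz have no such rows.

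Across the 28 libraries of the AppNLGF table, on scaled log2(TPM + 1), Ctsd, Ctss and Ctsz varied together. As a description, Pearson's r was 0.94 for Ctsd and Ctss, 0.93 for Ctsd and Ctsz and 0.92 for Ctss and Ctsz. With group means removed it was 0.80, 0.67 and 0.73, so much of this likeness was also present within groups. Ctsf did not vary with Ctsd (r = -0.04). In the 15 libraries of the APP/TAU table the highest value was 0.81, for Ctsb and Ctsl.

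The genes outside the family with the pattern most like Ctsd over the 28 libraries were Gfap (r = 0.98), Cst7 (0.97) and Itgax (0.96), and within groups the values were 0.92, 0.84 and 0.85. For Ctss they were the complement gene C1qa (0.97), Mpeg1 (0.94) and Ly86 (0.93), and for Ctsz C1qc (0.94), C1qb (0.93) and Trem2 (0.93). For Ctsa they were Grn (0.90), C4b (0.86) and Trem2 (0.84), for Ctsb Csf1r (0.85), C1qb (0.83) and Npc2 (0.83), and for Ctsc C4b (0.88), Gfap (0.86) and Man2b1 (0.82). For Ctsl they were Axl (0.86), Grn (0.79) and Csf1r (0.76). The closest genes to Ctsf (Rttn, 0.69), Ctso (Derl1, 0.71) and Ctsh (Aqp4, 0.80) were less alike. In the 15 libraries of the APP/TAU table the closest genes were others, Rab33b for Ctsd (0.90), Fcer1g for Ctss (0.84), Tmtc4 for Ctsz (0.84) and Endod1 for Ctsb (0.91). All libraries of a table share its groups and its scaling, which enter each of these values.

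Other cathepsin genes of the mouse were near or below detection. Of 15 listed, 2 were tested in each table, Ctsk, a collagen-cutting cysteine protease, and Tinagl1, a relative without protease activity, and neither passed in any comparison.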

How the data were processed

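Brain RNA was extracted with Sepasol and made into 43 libraries with a directional MGIEasy kit, per the labels' protocols. Per the submitters' processing notes, Salmon was run on GRCm38, also called mm10. The sources used here do not give its version or annotation. Values in the deposited files are TPM, with a separate file for each model. TPM keep no read counts, so depth is unknown and intervals for counting error cannot be had.

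Gene rows were matched to symbols for 51327 of 55804 identifiers, and positions are those of GENCODE on GRCm38. Genes with a mean of at least 1 TPM were tested, 16776 and 17592. Values were log2(TPM + 1), a scale that understates the change of low genes. Fits used limma 3.58.1 with a variance trend in R 4.3.3, all 3 groups of a table together, two-sided, adjusted by Benjamini-Hochberg over all genes. Differences between the models came from 1 fit of the 6 groups over the 16418 genes tested in both tables. The scripts were tested on simulated data. Python 3.11.15 with pandas 2.3.3, numpy 2.4.6 and matplotlib 3.10.9 made the summaries and figures, and version 1.17.8 of data.table read the values in R.

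Every cathepsin is named with its values, as are all tested inhibitors, and up to 4 genes of each other list with the smallest p are named with a few core members. The members and lists were chosen with earlier results of these data known. Alternatives were median-ratio scaling, a pseudocount of 0.1, no filter or a minimum of 5 TPM, only the 2 groups compared, each library left out, the replicate number as a block, library subsets and transcript rows added. The last, the Xist subsets and the combinations with scaling were chosen after seeing the data.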

Additional observations from a re-analysis of the deposited data

Results flagged for a closer look

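In wild types aged 11 months, library 4 stood apart from the other four in 3 cathepsin genes on TPM as deposited. Ctsb was at 124.5 TPM there, with the next at 93.9 TPM. Ctsf was at 29.5 TPM, with the next at 22.2 TPM, and Ctsz at 24.9 TPM, with the next at 18.5 TPM. The scaling factor of that library was 1.157, the highest of the 5 wild types. After scaling it no longer stood apart, with Ctsb at 107.6 TPM against 104.9 TPM in library 2. Ctsf was then at 25.5 TPM against 26.3 TPM in library 2, and Ctsz at 21.5 TPM against 22.7 TPM. The flags of this library are not independent of each other. In wild types aged 6 months, Ctsz was at 19.2 TPM in library 4, with the next at 17.9 TPM. Extreme values were looked for in 40 sets, the 10 genes in each of the 4 groups of 4 or 5 libraries, and chance marks about 1 in 20 such sets. The AppNLGF groups of 13 and 11 libraries were not examined in this way.

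After median-ratio scaling, 5 cathepsin genes differed between the models in their log2 fold over wild type, AppNLGF minus APP/TAU (limma, adjusted over 16418 genes). These were Ctsd by 0.96 (adjusted p = 1.74e-06), Ctss by 0.87 (0.00386), Ctsz by 0.76 (0.00157), Ctsl by 0.59 (0.00982) and Ctsb by 0.27 (0.0460). As deposited none passed.

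Rows of single transcripts, which the gene values leave out, held on average more TPM in AppNLGF mice given vehicle than the highest wild-type library did for 5 genes. The mean in the model and that wild-type maximum were 83.5 and 76.9 TPM for Ctsb, 3.88 and 1.74 TPM for Ctsd, 2.12 and 1.93 TPM for Ctso, 1.24 and 1.2 TPM for Ctsh, and 0.665 and 0.484 TPM for Ctsc. Ctsa, Ctsf and Ctsl did not meet this limit, and Ctss and Ctsz have no such rows. No test was made on these rows alone. The share of all genes that meet the limit was not counted, so the count is not read as particular to cathepsins.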

How the results depend on the processing

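In AppNLGF mice given vehicle against wild type, 3 of 10 cathepsins passed as deposited, and all were higher. The count was 5 after median-ratio scaling (0.691% of all genes called), 5 in libraries numbered 1 to 5 with scaling (0.34%), 5 with transcript rows added and scaling (0.546%), 6 without libraries 1 and 2 under CDDO-2P-Im with scaling (0.779%), and 1 in libraries with Xist at or below 10 TPM (0.107%). Leaving out single libraries gave 2 to 3 as deposited and 4 to 7 with scaling as well. For AppNLGF mice given CDDO-2P-Im against wild type, where 3 passed, the count was 5 with scaling (0.715% of all genes), 5 with transcript rows added and scaling (0.745%), 5 without libraries 1 and 2 (0.446%) and 6 with scaling as well (0.874%), 1 in a fit of only the 2 groups compared (0.0717%) and 0 in libraries with Xist at or below 10 TPM (0.0178%). Leaving out single libraries gave 1 to 3 as deposited and 5 each time with scaling as well. The difference between the models over wild type went to 5 genes with scaling, against 0 as deposited. In the difference between the models under CDDO-2P-Im, 7 of 10 folds changed sign with scaling, and none passed on either scale. Of these Ctsb, at -0.12 with scaling and 0.06 as deposited, had an unadjusted p below 0.05 on the scaled values. Over all genes 1890 of 16418 were below that limit there. The cause of these moves was not tested, beyond the fewer libraries in each subset. Drug against vehicle in either model, and every APP/TAU comparison, had 0 called members under each alternative run.

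With the replicate number as a block, 2 passed in AppNLGF mice given vehicle (Ctsd and Ctsz, with Ctss at an adjusted p of 0.109) and 3 in those given CDDO-2P-Im, against wild type, beside 0.173% and 19.2% of all genes. In the second of these 3158 genes were lower, against 3 without the block, and with scaling as well 0.298% of all genes were called. Correlations of the deviations of same-numbered libraries ran from -0.0788 to 0.118 in 19 AppNLGF pairs and from -0.0560 to 0.0866 in 15 APP/TAU pairs, and 8 of 38 and 10 of 30 matches were best with their own number. The number of best matches expected by chance was not computed, so this check cannot decide whether single numbers pair the libraries. The scaling factors differed between low and high numbers in both AppNLGF model groups. In 95 cases a fold within its error changed sign under an alternative. Depth is unknown, and the 4 wild types of the AppNLGF table limit what can be told.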
